A study of Homo sapiens with 6 samples.

Results

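The accessible regions in the outermost megabase of the human chromosome arms were taken from an ATAC-seq table of EndoC-βH3 cells. A region was counted as a member when its midpoint lay 20 kb to 1 Mb from the first or last base of an autosome in hg38, and the p arms of chromosomes 13, 14, 15, 21 and 22 were left out. The rule used position alone and gave 2434 members on 39 arms, out of 105696 autosomal regions and 108542 regions in all. Of the members, 756 were promoter regions, which overlapped the 2 kb on either side of the start of a protein-coding transcript, while 1678 were distal. In ATAC-seq the transposase Tn5 cuts open DNA and leaves adapters there, and reads pile up over accessible chromatin. EndoC-βH3 is a beta cell line made from human fetal pancreas, with immortalising transgenes that Cre recombinase can remove once 4-hydroxy tamoxifen (4-OHT) is given, and that control cells keep. The study had 3 libraries of non senescent cells (treatment: control) and 3 of senescent cells (treatment: senescence induction, 4-OHT for 3 weeks), each from 100000 cells of this 1 line with the genotype given as WT. The value used here is the authors' mean signal, the normalised read count of a region averaged over all 6 libraries, so it describes both groups together and has neither a spread nor an n of its own. The non senescent and senescent libraries were not compared here, because the table gives no value for a library. Sequencing depth per library is not known from it either.

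Chromosome ends carry arrays of the telomere repeat, and the sequence next to them, the subtelomere, is a patchwork of segments that have been copied between chromosomes. Further in, the terminal bands of many arms are rich in genes and in G and C bases, and they hold many minisatellites, which are tandem repeats of short units. Gene families such as the OR4F olfactory receptors, the TUBB8 tubulins and DUX4 have copies in these segments, whereas the alpha-globin genes on 16p lie in unique sequence close to a telomere.

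The members that carried repeats are shown first, since their sequence set them apart from other accessible regions. Tandem copies of TTAGGG, the telomere repeat, were present on either strand in the middle 300 bases of 9 members, against 14 of the 40 regions within 20 kb of an end and 3 of all regions further than 1 Mb from one. The only promoter region among the 9 is printed with each TTAGGG in capitals.
22q, promoter region of SELENOO, mean signal 172, chr22:50201859-50201948, minus strand: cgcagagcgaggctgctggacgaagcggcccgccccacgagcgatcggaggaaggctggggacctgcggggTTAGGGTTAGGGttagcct
In 8 of the 9 members the strand that spells TTAGGG ran toward the chromosome end, as it does in a telomere, and the SELENOO member, with only 2 copies, was the exception. The other 8 held 19 to 48 copies in their middle 300 bases. The highest mean signals of this kind were on 18q (chr18:80262911-80263256, 666), on 4q near DUX4 (chr4:190122460-190123069, 587) and on 3q (chr3:198173012-198174323, 245). The middle 300 bases of the 18q member had 51 near-identical places in the genome, a number at the limit of the search. Some of these can lie in its own repeat array. Its reads may not be assignable to 1 place, which was not tested. The remaining members of the 8 lay on 1p (chr1:180707-180992, mean signal 213), in an intron of PCMTD2 on 20q (chr20:64286748-64287387, mean signal 175), on 17p (chr17:113148-113329, mean signal 59.2), in an intron of BET1L on 11p (chr11:175460-176020, mean signal 50.5) and in an intron of TUBB8B on 18p (chr18:63679-63907, mean signal 24.8). Signals of the 8 thus spanned 24.8 to 666 around the median of 80.4 for distal members. All but the SELENOO member lay 63.8 to 181 kb from an end.

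Longer repeat units, of 34 or 68 bases, gave the best match over the whole length of 4 of the 6 distal members of highest mean signal outside mitochondrial sequence. This scan covered these 6 members only and had no limit. In the lines below, capitals mark every second unit of the repeat.
18p, unit of 68 bases, mean signal 10139, chr18:108560-108763, plus strand: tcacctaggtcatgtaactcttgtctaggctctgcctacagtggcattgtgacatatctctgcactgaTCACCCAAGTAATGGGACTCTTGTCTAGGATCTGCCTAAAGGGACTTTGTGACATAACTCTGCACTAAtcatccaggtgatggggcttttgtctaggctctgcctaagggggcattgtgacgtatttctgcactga
5p, intron of AHRR, unit of 34 bases, mean signal 4296, chr5:415486-415587, plus strand: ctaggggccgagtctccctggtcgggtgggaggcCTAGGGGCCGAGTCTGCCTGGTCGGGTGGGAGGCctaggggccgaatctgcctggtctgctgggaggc
The 68-base unit is the unit length of beta satellite DNA. The member on 18p (chr18:106223-111100) and those on 4q (chr4:190177035-190181676, mean signal 8385) and 10q (chr10:133686672-133690290, mean signal 6554) all had 68 bases as the best unit over their whole length, with 57.0%, 44.0% and 47.8% of bases equal to the base 1 unit further on. The 4q member lay in an intron of DUX4, 1843 bases from its nearest annotated start site and 3262 bases from its protein-coding one. The middle 300 bases of these 3 members had 3 to 4 near-identical places in the genome. Reads from such copies may not be assignable to 1 place. Neither this nor how much of the signal belonged to each place was tested. AHRR encodes a repressor of the aryl hydrocarbon receptor, and its member (chr5:415035-416037) had no near-identical copy elsewhere.

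The highest mean signal of all regions in the table also belonged to a member, on 1p (chr1:631769-634857, mean signal 187656). It lay within a nuclear copy of mitochondrial DNA that is annotated as the pseudogenes MTND2P28, MTCO1P12 and MTCO2P12. A stretch from its middle is set against its best match without gaps in mitochondrial DNA of the same assembly. Capitals mark the 7 bases that differ when no gap is allowed.
1p nuclear copy, chr1:633254-633373, plus strand: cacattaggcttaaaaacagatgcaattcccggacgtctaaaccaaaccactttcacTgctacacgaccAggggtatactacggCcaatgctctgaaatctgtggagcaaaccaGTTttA
mitochondrial DNA, chrM:8083-8202, plus strand: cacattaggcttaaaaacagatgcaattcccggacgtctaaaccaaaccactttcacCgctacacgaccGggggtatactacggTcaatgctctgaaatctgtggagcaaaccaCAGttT
The 3 other members in this copy had mean signals of 84141 (chr1:629133-630060), 53834 (chr1:630763-631366) and 14908 (chr1:630233-630460), and the 4 members matched mitochondrial DNA at 97.4% to 99.0% of bases. These 4 members made up 27.1% of the summed mean signal of all members. The authors removed reads that aligned to mitochondrial DNA, and how many of the reads at this copy came from mitochondria was not tested. Outside the outermost megabase, 27 autosomal regions matched mitochondrial DNA over at least 100 bases, with mean signals up to 24634. With these regions, the members held 3.92% of the autosomal signal on 1.34% of the known sequence, and without them in either place 2.89%.

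Accessible regions were denser in the outermost megabase than in the rest of the autosomes. The members numbered 65.7 per Mb of known sequence, against 38.0 in the rest, a ratio of 1.73 (95% exact binomial interval 1.66 to 1.80, which covers counting error only). Promoter regions were at 20.4 per Mb against 6.87, and distal regions at 45.3 per Mb against 31.1. By distance from the end, the density was 166 per Mb under 20 kb, where 40 regions lay that are not members, 64.5 at 20 to 100 kb, 56.1 at 100 to 250 kb, 66.0 at 250 to 500 kb, 71.2 at 500 to 750 kb and 66.1 at 750 kb to 1 Mb. The density did not end at the 1 Mb limit, since it was 64.0 per Mb at 1 to 2 Mb, 50.0 at 2 to 5 Mb, 39.0 at 5 to 10 Mb and 36.9 further in. Base composition moved with it. The sequence of the outermost megabase had 48.2% G and C bases, against 40.9% in the rest. Among 100 kb windows of like GC content the ratio of densities was 1.17, with 4 of 10 bins of GC content higher in the outermost megabase, and at a like number of protein-coding genes it was 1.50.

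**Figure D1:**
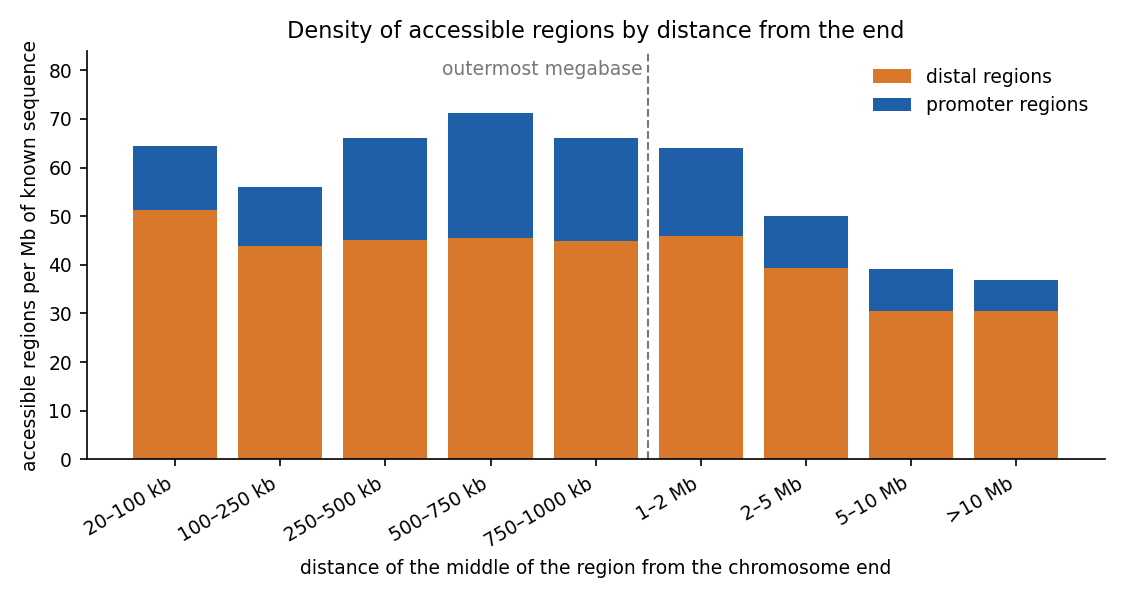
Accessible regions per Mb of known sequence (vertical axis) by distance from the chromosome end (horizontal axis), with distal regions below and promoter regions on top of each bar. Density stayed between 56.1 and 71.2 per Mb from 20 kb to 2 Mb from the end and was 36.9 per Mb beyond 10 Mb.

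The arms differed widely. Density in the outermost megabase ranged from 17.9 per Mb on 14q to 121 per Mb on 16p, with a median of 63.9 over the 39 arms. It was higher than at 1 to 10 Mb from the same end on 34 arms and lower on 5, which were 14q, 1q, 3p, 6p and 9q. The most members lay on 16p (119), 2q (108), 16q (102) and 11p (100), and the fewest on 14q (15), where none was a promoter region. On 1q, 33 protein-coding genes lay in the window beside only 19 members. On 19q, 44 of 49 members were promoter regions, and the 5 distal ones had a median signal of 1026. Arms rich in G and C bases were those with more regions, with a Pearson r of 0.79 and a Spearman rho of 0.77 over 39 arms, while for the number of protein-coding genes both were 0.50. These 2 correlations are descriptions across arms, which share the same libraries. The p arms and q arms had like densities, 65.5 and 66.0 per Mb, and their promoter regions had median signals of 252 and 443.

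**Figure D2:**
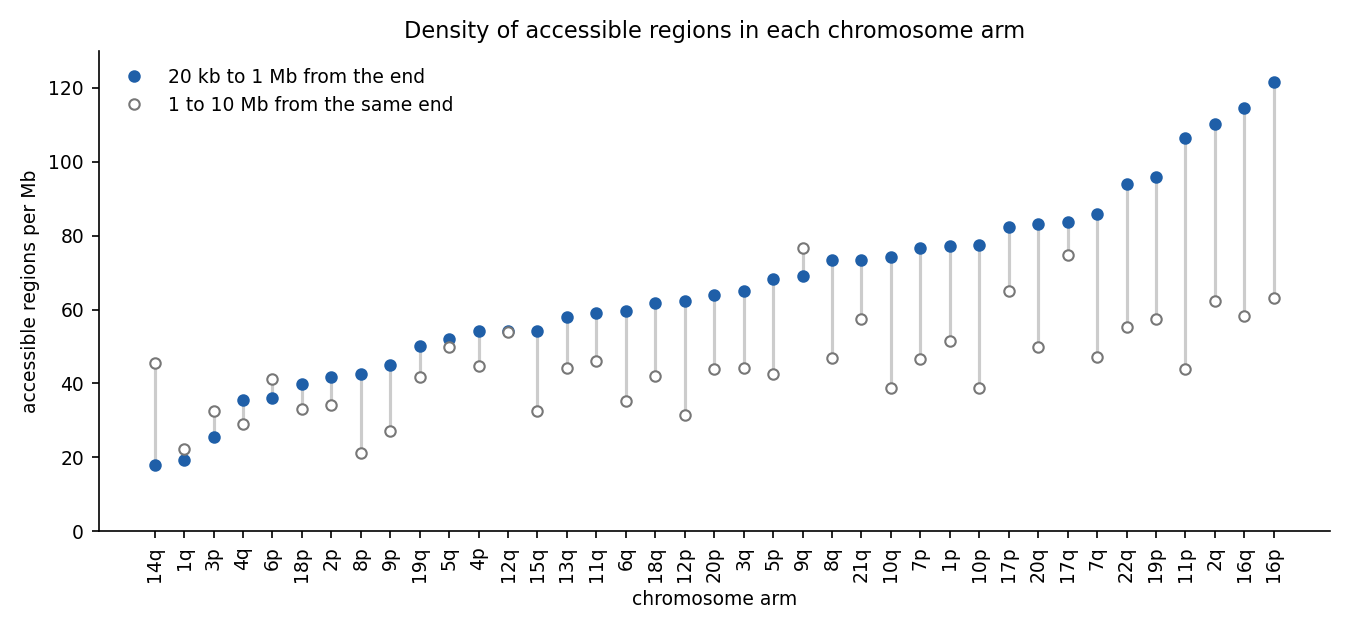
Accessible regions per Mb (vertical axis) in each of 39 chromosome arms (horizontal axis, ordered by density), for 20 kb to 1 Mb from the end (filled) and 1 to 10 Mb from the same end (open). The filled point lies above the open one on 34 arms, and the arms run from 17.9 per Mb on 14q to 121 per Mb on 16p.

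Promoter regions made up 31.1% of the members (95% Wilson interval 29.3 to 32.9) and 18.1% of the regions in the rest, and their share was higher than at 1 to 10 Mb on 29 of 39 arms. Within the window the share was lowest at 20 to 100 kb, at 20.5%, and highest at 500 to 750 kb, at 36.1%. The window held 17.0 protein-coding genes per Mb, against 6.67 in the rest, and 522 of its 631 genes (82.7%) had a promoter region, against 79.7% elsewhere.

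Member promoters had lower mean signal than other promoters. Their median was 354 normalised reads (95% interval of the median 319 to 408), against 522 in the rest, and 20.6% of them reached 1000, against 29.2%. They were also narrower, with a median width of 852 against 979 bases, and per kb of width the medians were 422 and 517. At like width the mean difference was -0.15 on the log2 scale, and at like GC content -0.40. The difference was not uniform with distance. Within 100 kb of the end the median was 706, over only 30 promoter regions, and at 750 kb to 1 Mb it was 309. Set against promoters 1 to 10 Mb from the same ends, the outermost promoters were higher in median signal on 20 arms and lower on 18, so the lower signal did not hold arm by arm. The table averages over cells and libraries, so fewer cells with an open site and less opening per cell cannot be told apart.

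Distal members had a median signal of 80.4 (74.9 to 88.4), close to the 76.9 of other distal regions. The mean on the log2 scale was 0.24 above that of the rest, but at like GC content the difference was -0.21, with members higher in 3 of 10 bins. Without regard to GC content, the tails differed more than the median: 14.8% of distal members reached 500 normalised reads, against 8.99% in the rest, and 6.85% reached 1000, against 3.16%. Among distal members the median was lowest at 20 to 100 kb, at 59.2, and highest at 500 to 750 kb, at 87.1. It was 93.2 in the 40 regions under 20 kb and 107 at 2 to 5 Mb. Accordingly distal members were lower than distal regions 1 to 10 Mb from the same ends, on 28 of 39 arms and with a ratio of medians of 0.839. Of the distal members, 57.5% lay in introns and 12.0% in exons, against 54.4% and 7.28% in the rest.

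**Figure D3:**
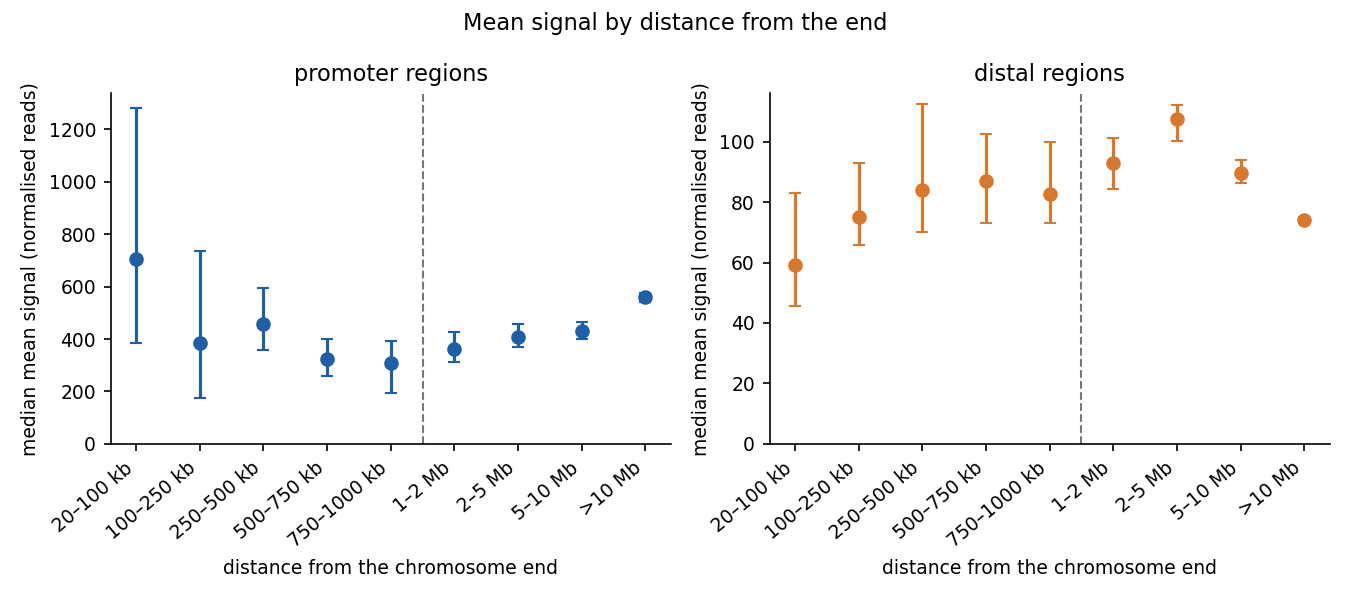
Median of the authors' mean signal in normalised reads (vertical axis, linear) by distance from the chromosome end, for promoter regions (left) and distal regions (right). Bars are 95% order-statistic intervals of the median, the dashed line marks 1 Mb, and distal medians run from 59.2 at 20 to 100 kb, the first zone drawn, to 107 at 2 to 5 Mb.

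At like mean signal, members were richer in G and C bases than other regions. The difference was 4.68 percentage points in promoter regions (65.0% against 60.3%) and 9.17 points in distal regions (55.7% against 46.5%), and members were higher in all 10 bins of signal in both classes. The ratio of observed to expected CpG in distal members was 0.377, against 0.260 at like signal. In distal regions the difference in GC content varied little within the outermost megabase. Against regions over 10 Mb from an end at like signal, it was 8.92 points at 20 to 100 kb, 10.2 at 500 to 750 kb, 11.9 at 1 to 2 Mb and 3.23 at 5 to 10 Mb. By arm, mean distal GC content was higher than at 1 to 10 Mb from the same end on 35 of 39 arms. Mean promoter GC content was higher on 26 and lower on 12 of the 38 arms with promoter members.

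Short motifs followed this composition for the most part. The GC box GGGCGG, which binds Sp factors, was found on either strand in the middle 300 bases of 20.9% of distal members and 8.38% of other distal regions, but in 22.1% of the latter at like GC content. CCAAT, the site of NF-Y, was rarer in members, in 18.0% of promoter members against 24.3% elsewhere and 22.3% at like GC content. CCGGAAGT, the core site of ETS factors, was in 5.82% of promoter members, against 3.34% elsewhere and 3.36% at like GC content. Over all autosomal regions these 3 motifs were in 17.2%, 29.0% and 0.852%. The CTCF core was in 3.52% of distal members and 2.78% of other distal regions, with 4.59% at like GC content, and in 2.49% of all regions. CTCF folds chromatin into loops, and many subtelomeres hold sites for it. The arms 8p and 8q were left out when a member with a CTCF core was chosen for printing. Among the other distal members with a core, the highest signal lay in an intron of BET1L on 11p (chr11:189583-190292, mean signal 564). Its middle 300 bases had 2 near-identical places in the genome, and its core is in capitals.
11p CTCF core, chr11:189794-189853, minus strand: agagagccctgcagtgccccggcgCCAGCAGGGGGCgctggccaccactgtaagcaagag
The remaining motifs were within 2 percentage points of the rest at like GC content in both classes. In distal regions, TGACGTCA (CREB) was in 0.298% of distal members against 0.394% at like GC content, TGANTCA (AP-1) in 8.10% against 8.93%, TGTTTAC (FOXA) in 5.60% against 7.04%, TGCTGAC (MAF) in 7.75% against 7.69% and TAATTA (homeodomain factors) in 4.83% against 5.11%. The widest gap for these motifs in promoter regions was that of TGCTGAC, in 5.56% of promoter members against 3.89% at like GC content. Over all autosomal regions these 5 motifs were in 0.499%, 9.86%, 8.25%, 6.65% and 8.65%. A match is a description of the letters in the window and not of bound protein.

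Tandem repeats were more frequent among distal members than among other distal regions. A region was counted as a tandem repeat when at least 70% of the bases in its middle 300 matched the base 1 unit further on, for a unit of 2 to 80 bases, a limit that was set after values had been seen. Of the 1678 distal members, 228 (13.6%, 12.0 to 15.3) met it, against 617 of 84573 (0.730%) elsewhere, a ratio of 18.6. With limits of 60% and 80% the shares were 15.7% against 1.02% and 10.3% against 0.378%. At like GC content 1.38% of other distal regions met the 70% limit, and at like signal 0.746%. The share was higher than at 1 to 10 Mb from the same end on 38 of 39 arms and lower only on 19q. It was 32.5% under 20 kb, 13.8% at 20 to 100 kb, 16.1% at 250 to 500 kb, 11.2% at 750 kb to 1 Mb, 7.27% at 1 to 2 Mb, 3.09% at 2 to 5 Mb and 0.404% beyond 10 Mb. Units of 20 bases or more accounted for 216 of the 228, with a median unit of 51 bases. Most of these repeats were weak, with a median signal of 34.0 against 92.4 for other distal members, although 9 reached 1000 normalised reads. Elsewhere on the autosomes the same held, with medians of 34.1 for tandem repeats and 77.3 for other distal regions. Introns held 150 of the 228 members. PTPRN2, which encodes a protein of the insulin granule membrane and spans much of the end of 7q, held 10, and DIP2C on 10p held 9. Without these repeats the density of distal regions was 39.2 per Mb, against 30.9 in the rest, so that its ratio went from 1.46 to 1.27.

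Another near-identical place in the genome was found for 15.9% of members (388) and 9.99% of the rest. The criterion was 95% identity or more over at least 90% of the middle 300 bases. The share with such a place was 47.3% at 20 to 100 kb, 36.9% at 100 to 250 kb and 12.7% at 250 to 500 kb. It was 9.17% at 500 to 750 kb and 8.85% at 750 kb to 1 Mb, below the 9.99% of the rest. Distal members had such a place more often than promoter members, in 21.9% against 2.78%. In the rest the shares were 11.7% of distal and 2.30% of promoter regions. The median signal of distal members was 43.7 with a copy and 96.5 without one, and of distal regions in the rest 20.8 and 85.7. These shares can miss sequence that recurs very often, which was skipped in the search. They can also count a place in the same tandem array. Of the distal members that were tandem repeats, 64.9% had such a place, against 15.1% of the other distal members.

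**Figure D4:**
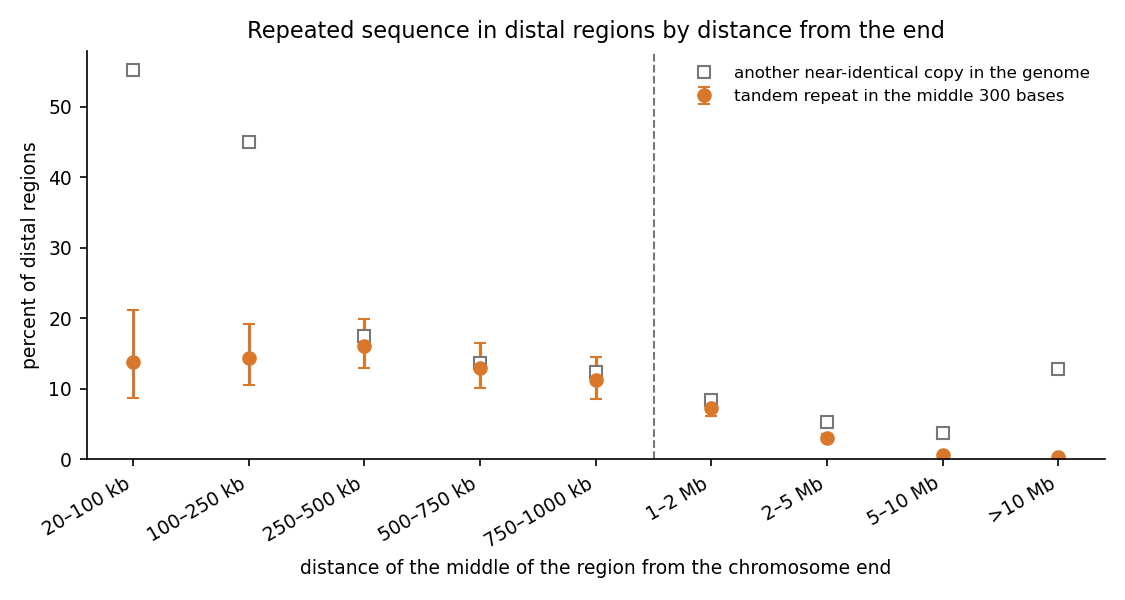
Percent of distal regions (vertical axis) by distance from the chromosome end (horizontal axis) that were tandem repeats in their middle 300 bases (filled, with 95% Wilson intervals) or had another near-identical place in the genome (open squares). Such a place could lie in the same tandem array. Tandem repeats stayed between 11.2% and 16.1% from 20 kb to the dashed 1 Mb line and were at 0.404% beyond 10 Mb.

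Of the 10 promoter members with the highest signal, 4 lay on 2q. These were those of HDLBP, an RNA-binding protein (chr2:241314799-241316589, mean signal 5977), FARP2, a guanine nucleotide exchange factor (chr2:241355016-241356703, 5973, with 6 near-identical places for its middle 300 bases), STK25, a kinase of the Golgi apparatus (chr2:241507473-241509440, 4167), and ING5, a reader of histone marks (chr2:241686385-241687790, 3454). The middle of the FARP2 member was a tandem repeat by the 70% limit, with a unit of 74 bases, as was that of the SPATC1L member, with a unit of 53 bases, while 9 of all 756 promoter members met this limit. The others in the top 10 were those of SPATC1L on 21q (4714), the zinc finger genes MZF1 on 19q (4173) and ZNF140 on 12q (3619), SPATA2L on 16q (3570), NRSN2 on 20p (3378) and TMEM80 on 11p (3180). Apart from the satellite, mitochondrial and AHRR members, the distal members of highest signal were in an intron of LINC01237 on 2q (chr2:241880888-241882529, 4691) and at the start of the antisense RNA gene PCGF3-AS1 on 4p (chr4:781390-782774, 4052).

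Genes of the window were described by lists, with the mean signal of the strongest promoter region of each gene, and over all 522 genes with 1 the median was 660, against 865 for the other autosomal genes. A percentile places a gene among all autosomal genes with a promoter region, and the median percentile of the window was 38.9. The zinc finger genes stood highest. Of 23 listed in the window, most of them repressors with a KRAB domain, 22 had a promoter region, with a median signal of 1870 and a median percentile of 86.0, and 19 were above the genome median. MZF1 (4173) was highest, followed by ZNF140 (3619), ZNF141 on 4p (2303), ZNF837 (2203) and ZNF497 (2184), the last pair on 19q, and ZNF732 on 4p had none. Over all zinc finger genes by symbol, 51 of 56 in the window had a promoter region, with a median of 1007, against 795 in the rest of the genome, so the listed genes stood above their family.

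MZF1 was also the strongest promoter within 100 kb of an end. Its promoter in RefSeq (GRCh38.p14) is printed with the only GC box, which is on the opposite strand, in capitals.
MZF1 promoter, chr19:58573524-58573823, minus strand: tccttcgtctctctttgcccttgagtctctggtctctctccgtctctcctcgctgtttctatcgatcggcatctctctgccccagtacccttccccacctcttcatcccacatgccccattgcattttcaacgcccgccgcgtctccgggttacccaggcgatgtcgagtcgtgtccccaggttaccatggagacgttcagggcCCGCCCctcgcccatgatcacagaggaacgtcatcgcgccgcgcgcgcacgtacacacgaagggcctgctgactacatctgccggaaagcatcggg
It held neither CCAAT nor CCGGAAGT. Of all 35116 promoters of 300 bases in that table, 45.0% held GGGCGG, 34.6% CCAAT and 4.14% CCGGAAGT. Open promoters were present close to the ends of several arms. That of RABL2B, a small GTPase, lay on 22q with its start site 34.8 kb from the end (mean signal 1059, with 2 near-identical places for its middle 300 bases), and those of FAM110C on 2p (46.9 kb, 883), CHAMP1, a chromosome alignment protein, on 13q (49.8 kb, 912), PGBD2 on 1q (50.2 kb, 776), ZNF595 on 4p (53.3 kb, 1281) and POLR3K, a subunit of RNA polymerase III, on 16p (53.6 kb, 1610) came next after MZF1 on 19q (44.0 kb).

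Cell cycle and genome maintenance genes and housekeeping genes were near the genome median. All 19 of the former had a promoter region, with a median signal of 1106 and a median percentile of 62.4, led by DTYMK, the thymidylate kinase (3454, in the region shared with ING5), PCNT, a centrosome protein (2299), NCAPG2, a condensin subunit (2099), RAD52, a recombination protein (1940), and CDK10 (1908). All 19 housekeeping genes had 1 too, with a median of 965, led by the shared promoter of PSMB1 and TBP, which encode a proteasome subunit and the TATA-binding protein (2094), UBE2M, the NEDD8-conjugating enzyme (2066), the ribosomal protein gene RPLP2 (2001) and SNRPA1, a spliceosome protein (1534). Of 19 genes of mitochondria and metabolism, 18 had a promoter region, with a median of 929, led by the shared region of SCO2 and TYMP (1901), followed by D2HGDH (1759), POLR3K, which was listed here (1610), and the mitochondrial glutamate carrier SLC25A22 (1507). CPT1B, the muscle form of carnitine palmitoyltransferase, had none.

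Genes of regulated secretion and signalling stood lower. Of 19 secretion genes, 18 had a promoter region, but the median signal was 363, the median percentile was 23.0 and 5 were above the genome median. RPH3AL, a Rab effector of insulin granule exocytosis on 17p, was highest (2945), followed by VPS53 (1690), RAB40B (1255), PTPRN2 (1106) and GET4 (870), and RGS19 had none. The signals of CPLX1, a complexin (202), DOC2B, a calcium sensor of granule fusion (127), and VIPR2, a receptor for vasoactive intestinal peptide (76.0), were below the genome median. Of 20 signalling genes, 19 had a promoter region, with a median of 554, led by WNK1 (2542), SOX12 (1654), CSNK2A1 (1651), GAK (1307) and DLL1 (1230), and SOX18, an endothelial transcription factor, had none. Of 12 interferon and innate immunity genes, 10 had a promoter region, with a median of 394. TRIM41 (2712), TRIM28, the corepressor of KRAB zinc finger proteins (1834), DUSP22 (1373), the antiviral gene IFITM3 (577) and B4GALNT3, a glycosyltransferase gene (450), were highest. IFITM1 and IFITM2 shared a region of 53.3 that has another near-identical copy, and IFITM5 and IRF7 had none.

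No haemoglobin, white blood cell or beta-defensin gene listed in the window had a promoter region above the genome median. Of the 5 haemoglobin genes on 16p, which are expressed in erythroid cells, 4 had a region, with signals of 206 for HBQ1, 139 for HBZ, 15.4 for HBA2 and 8.12 for HBM, and HBA1 had none. HBA1 and HBA2 are near-identical, so reads may not be told apart between them, which was not tested. Among 8 genes listed for white blood cells, MADCAM1, a vascular adhesion molecule for lymphocytes (400), and PDCD1, a receptor of T cells (240), were highest, then CFD (61.3), ELANE, the neutrophil elastase (56.9), and PRTN3 (28.1), whereas AZU1, GZMM and PRSS57 had no region. Of 6 beta-defensin genes on 20p, only DEFB127 had one, at 32.0. Among 15 genes of families at chromosome ends, 7 had a promoter region, with FAM110C (883), ZNG1A (737), FRG1 (696), WASHC1 (347) and TUBB8 (176) highest. DUX4, FRG2 and the 6 OR4F genes had none. The 4q satellite member inside DUX4 lay more than 2 kb from the protein-coding start of that gene. By symbol, 1 of 39 olfactory receptor genes in the window had a promoter region, against 5.41% of 351 elsewhere.

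**Figure D5:**
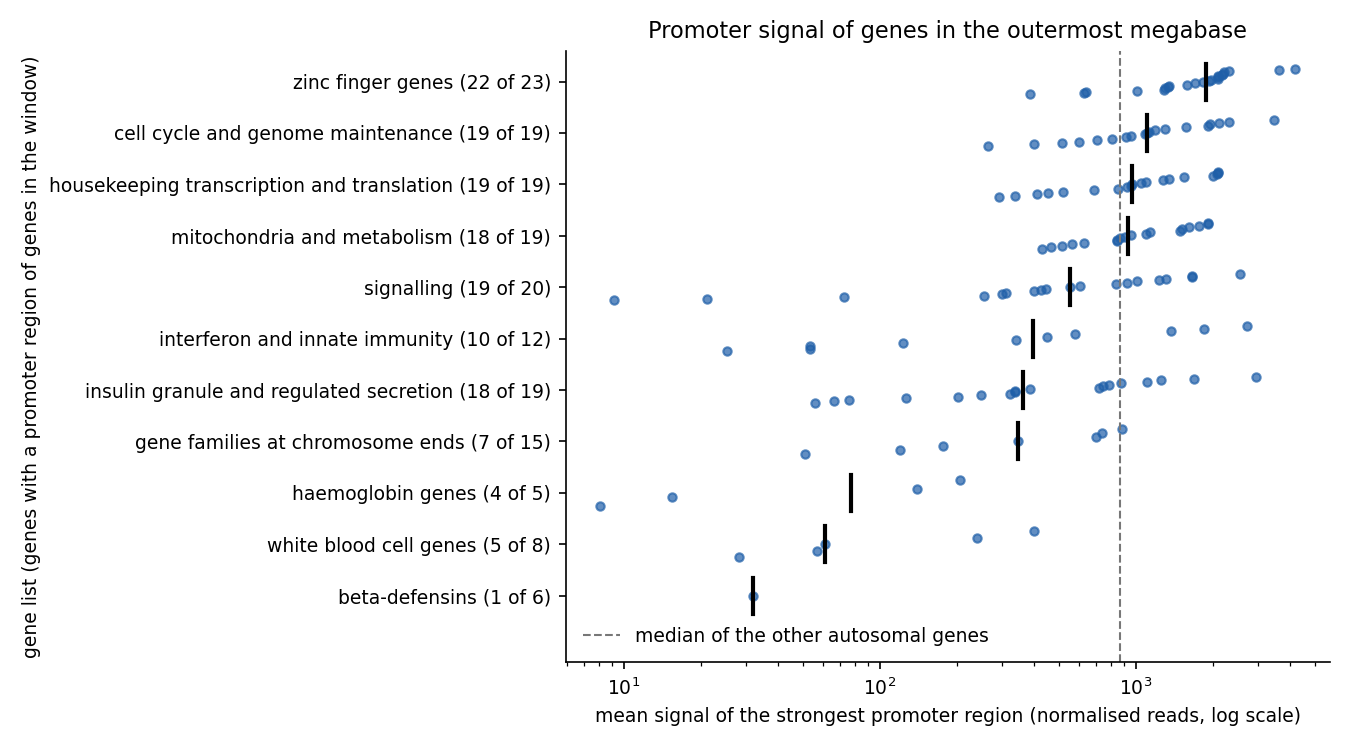
Mean signal in normalised reads of the strongest promoter region (horizontal axis, log scale) of each gene in the outermost megabase, by gene list, with list medians as black bars and the median of other autosomal genes, 865, as a dashed line. The zinc finger genes had a median of 1870, and haemoglobin, white blood cell and beta-defensin genes had medians of 77.3, 61.3 and 32.0.

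The label of the cells was checked against markers over all autosomes. All 10 beta cell markers had a promoter region, with a median of 2372 and a range from 183 at IAPP to 7894 at INS. Of the markers of other types reported here, CPA1 (acinar, 2101), IRX2 (alpha, 1340), KRT19 (duct, 1059) and CD14 (immune, 634) were above 500, and those with a region below that were COL1A1, COL1A2 and LUM (fibroblast, 17.6 to 142), SOX9 (duct, 131), PECAM1 (endothelial, 117), PTF1A (acinar, 110), GCG (alpha, 66.3) and HBA2 (erythroid, 15.4). PTPRC, CD3E, CDH5, VWF, HBA1, PRSS1 and CFTR had no promoter region.

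The members next to the limits of the rule were as follows. The 5 members just inside 1 Mb had mean signals of 1586 at the DLG1 promoter (3q), 328 at ANKRD11 (16q), 73.2 at HES4 (1p), 35.5 in IDUA (4p) and 17.5 near SOX8 (16p). Just outside were a region of 80.8 at the same HES4 promoter, regions of 77.0 and 1054 at HGH1 (8q), one of 72.9 at GRTP1 (13q) and one of 193 near TIMM22 (17p). The 5 members nearest to an end lay 20.1 to 24.2 kb from it, on 2p (251 and 131), 7p (50.7), 12p (221) and 16p (105), and the 5 regions just under 20 kb had signals of 10.5 to 22.1 and 9 to 45 near-identical places in the genome each.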

How the data were processed

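ATAC-seq libraries of EndoC-βH3 cells, 3 non senescent and 3 senescent by their labels, were used as 1 deposited table of 108542 regions. In the methods of the study, reads were trimmed by the authors (Trim Galore, cutadapt) and mapped with Bowtie2 to hg38. Mitochondrial and duplicate reads were then discarded, the Tn5 offset was corrected with deepTools, MACS2 peaks were merged into a union, and the authors normalised the reads counted over it with DESeq2. Versions, and any filter on reads that map to several places, are not given in the sources used here. Whether region starts count from 0 or 1 is not stated, and they are printed as deposited. Bases were read with starts taken as 0-based.

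The mean signal in the authors' deposited table is the average of normalised counts over the 6 libraries. The table's 5 further columns hold the authors' own comparison of the groups (fold change, its error, statistic, p-value and adjusted p-value) and were not used. There are no values per library, so no test was made and every comparison is a description. Regions are not replicates, and intervals (95%) cover counting error only. Reads are fragments without molecular identifiers.

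Promoters came from GENCODE 44, other sequence from hg38 and 1 promoter from RefSeq. Comparisons at like signal, width or GC content used 10 bins, weighted by the members. Near-identical copies were sought with minimap2 2.31, mitochondrial matches with blastn from BLAST+ 2.17.0, and the rest was done in Python 3.11.15 with pandas 2.3.3, NumPy 2.4.6 and SciPy 1.17.1. The functions were tested on simulated data. Some marker genes and sequences are not reported here. The members, gene lists and motifs were chosen with earlier results of these data known. Named were the 10 promoter and 10 distal members of highest signal, up to 5 genes of each list with the highest signal and up to 3 with none, the members next to each limit, and members with tandem TTAGGG. Among further names, the lower secretion genes, the top tandem hosts and the promoters closest to the ends were chosen after their values were seen. Alternatives were outer limits of 0.5 and 2 Mb, inner limits of 0 and 100 kb, promoter windows of 1 and 0.5 kb, start sites of all genes, a mean signal of at least 50, signal per kb, the rest taken 1 to 10 Mb from the same ends, and each arm left out. Removal of copies, tandem repeats or mitochondrial matches, windows of like GC content, and signal at like GC content or width were added after seeing the data.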

Additional observations from a re-analysis of the deposited data

How the results depend on the processing

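Of the 6 summary values, the density ratio, the promoter share, the lower promoter signal and both differences in GC content kept their direction under every alternative, while the distal signal did not. Its ratio of medians was 1.05 against the rest of the autosomes and turned to 0.839 when the rest was taken 1 to 10 Mb from the same ends, and it was 1.20 without tandem repeats. At like GC content the distal signal was also below that of the rest, with a ratio of geometric means of 0.865. The density ratio of 1.73 was 1.64 with an outer limit of 0.5 Mb, 1.82 for a mean signal of at least 50, 1.45 against 1 to 10 Mb, 1.62 without copied regions, 1.57 without tandem repeats and 1.17 at like GC content of 100 kb windows. The promoter share of 31.1% was 27.3% at 0.5 Mb, 26.5% and 23.4% with promoter windows of 1 and 0.5 kb, 50.6% with start sites of all genes, 37.8% for a signal of at least 50, 35.9% without copied regions and 34.0% without tandem repeats. The ratio of promoter signals of 0.678 was 0.911 at 0.5 Mb, 0.860 against 1 to 10 Mb, 0.816 per kb of width and, as geometric means, 0.900 at like width. At 0.5 Mb its interval, 0.747 to 1.12, included 1, so the lower promoter signal was not resolved there. The promoter GC difference of 4.68 points was 3.35 at 0.5 Mb, 5.50 at 2 Mb, 5.63 with start sites of all genes and 1.47 against 1 to 10 Mb, and the distal one of 9.17 was 10.4 at 2 Mb, 8.09 for a signal of at least 50, 3.96 against 1 to 10 Mb and 8.47 without tandem repeats. Leaving out each arm gave density ratios of 1.69 to 1.76, promoter shares of 29.9% to 31.7%, promoter signal ratios of 0.641 to 0.740, distal ones of 1.03 to 1.07, and GC differences of 4.36 to 4.94 and 8.98 to 9.36 points. The other alternatives stayed within the counting interval of the reported value. Why values moved was not tested. No paired analysis was possible because each region has only a mean over the libraries, and for this reason no library could be left out.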

Other observations

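The regions within 20 kb of an end, which were left out of the members, numbered 40 on 0.241 Mb of known sequence, and none was a promoter region. Of these, 13 were tandem repeats, with a median signal of 611, and 25 had another near-identical place in the genome. Mean signal has no spread here, so a difference between 2 regions cannot be set against replicate error. In copied or repeated sequence, a mean signal belongs to a family of places rather than to the printed one. The reference assembly also holds gaps and collapsed repeats near several ends, and sequence that hg38 lacks was not analysed here.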
